A study of Mus musculus with 12 samples.

Results

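Gene expression of all 6 T2D arrays was compared with that of all 6 control arrays, which together were all 12 arrays of the series. The T2D arrays formed the label groups 6Y, 16Y and 42Y, with replicates 1 and 2 in each. The control arrays formed the groups 6K, with replicates 1 and 2, 42WKK, with replicates A and B, and a pair titled 1-3 and 1-5. Each arm thus held 3 label groups of 2 arrays. Arrays were placed by title and by the series text, which speaks of 6 mice of each kind. The study used KK mice, an inbred line prone to obesity and insulin resistance, and KK-Ay mice, the same line carrying the A-y allele of agouti, which the methods give as KK.Cg-Ay/J. Both lines received the same chow, and no drug or other treatment is named. The only age in the methods is 42 weeks. No source used here explains the numbers 1, 6 and 16 in the titles or gives the strain of arrays 1-3 and 1-5, so age and strain cannot be told apart from the label groups. The genotype field of the sample records contradicts the series text for 4 arrays, calling 6K T2D and 42Y control. The agouti locus and the acute phase, macrophage, neutrophil, lipid synthesis, clock and NRF2 lists are therefore also given without them.

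The sample records name blood as the source while the methods name liver. Hepatocyte genes had array medians of 13.0 to 13.1 on the log2 scale, and T cell genes of 4.40 to 4.65, close to the array medians of 4.74 to 4.88. The values were log2 signals of 35556 transcript clusters, of which 21789 carried 1 gene symbol. The Pearson correlation of an array with its partner of the same label group was 0.983 to 0.991. On each of the first 4 principal components, which held 18.8%, 14.5%, 12.4% and 10.4% of the variance, the ranges of the T2D and control arrays overlapped. In bulk tissue, a lower signal from fewer cells of a type and from less RNA per cell cannot be told apart.

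Agouti is a secreted protein that antagonises melanocortin receptors. It normally acts in hair follicles, where it blocks Mc1r and turns pigment yellow, and in A-y mice it is made in nearly all tissues and blocks Mc4r in the hypothalamus, which leads to overeating, obesity and diabetes. The A-y allele is a deletion on chromosome 2 that removes the coding region of Raly, an RNA binding protein, and the neighbouring Eif2s2, the beta subunit of translation initiation factor eIF2. It thereby places agouti under the promoter of Raly. The allele is lethal when homozygous, so carriers keep an intact copy of the region. These 3 genes serve as a check of the labels.

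The 3 promoters are shown because the allele exchanges one for another. In GRCm38.p6 they span chr2:154790860-154791159 on the plus strand for Raly, chr2:154892857-154893156 on the minus strand for Eif2s2 and chr2:155013320-155013619 on the plus strand for agouti. Each covers 250 bases before and 50 after the RefSeq start of the reference genome, not of the A-y allele, and is written 5′ to 3′ with CpG dinucleotides in capitals.
Raly: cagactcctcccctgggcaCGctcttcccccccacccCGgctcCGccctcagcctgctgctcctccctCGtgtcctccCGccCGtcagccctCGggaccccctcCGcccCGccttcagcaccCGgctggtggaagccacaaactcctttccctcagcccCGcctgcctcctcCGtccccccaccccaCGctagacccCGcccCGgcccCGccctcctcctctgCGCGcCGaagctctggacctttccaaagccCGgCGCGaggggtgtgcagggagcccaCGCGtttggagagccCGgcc
Eif2s2: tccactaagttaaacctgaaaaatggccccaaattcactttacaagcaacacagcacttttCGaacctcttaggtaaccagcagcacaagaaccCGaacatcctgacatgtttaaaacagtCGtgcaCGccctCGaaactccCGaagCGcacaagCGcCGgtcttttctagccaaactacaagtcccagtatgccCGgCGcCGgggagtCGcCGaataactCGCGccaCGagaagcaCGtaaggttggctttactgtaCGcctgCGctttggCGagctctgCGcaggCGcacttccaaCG
a: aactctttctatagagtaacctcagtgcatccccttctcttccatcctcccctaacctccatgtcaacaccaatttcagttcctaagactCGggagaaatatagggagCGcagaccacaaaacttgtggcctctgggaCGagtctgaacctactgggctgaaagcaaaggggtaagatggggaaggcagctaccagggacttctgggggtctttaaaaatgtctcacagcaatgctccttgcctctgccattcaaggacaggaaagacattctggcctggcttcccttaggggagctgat
The Raly promoter held 25 CpG, a number reached by 18.4% of 32851 RefSeq mouse promoters of the same length, and 73.7% of its bases were G or C. The Eif2s2 promoter held 24, at 53.3% G or C. The agouti promoter held 3, reached by 76.7% of promoters, at 50.3% G or C, and the median promoter had 7. The motif CCGCCC on either strand occurred 5 times in the Raly window and in neither of the others, and 35.7% of promoters held it. TATAAA, searched on both strands, was in none of the 3 windows and in 13.6% of promoters.

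Agouti separated the T2D from the control arrays by a wide margin. Its log2 signal was 5.51 and 5.21 in control arrays 1-3 and 1-5, 5.29 and 5.20 in 6K, and 5.22 and 5.34 in 42WKK. It was 7.06 and 6.78 in the T2D arrays 6Y, 6.89 and 6.80 in 16Y, and 6.96 and 6.96 in 42Y. Every T2D array lay above every control array, with a gap of 1.27 between the nearest ones. The signal was 3.06-fold higher in T2D, a log2 difference of 1.61 (standard error 0.08, n = 6 per arm, adjusted p = 8.7e-07 from limma). Within the arms, the SD over arrays was 0.11 in T2D and 0.12 in control. Agouti was the 1 cluster called higher in T2D, or 0.00281% of the clusters tested, and it was also called higher without the 6K arrays and without the 42Y arrays.

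Raly fell in T2D. Its log2 signal was 7.21 and 7.47 in arrays 1-3 and 1-5, 7.61 and 7.73 in 6K, and 7.49 and 7.25 in 42WKK, against 6.70 and 6.81 in 6Y, 6.78 and 6.59 in 16Y, and 6.65 and 6.77 in 42Y. No T2D array reached the lowest control array, and the gap was 0.40. The signal was 1.68-fold higher in control than in T2D (log2 difference -0.745, standard error 0.095, adjusted p = 0.032 from limma).

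Eif2s2 was measured by a pair of clusters, both lower in every T2D array. Cluster 10578683 read 8.15 and 8.16 in arrays 1-3 and 1-5, 8.45 and 8.53 in 6K, and 8.88 and 8.75 in 42WKK. In T2D it read 7.67 and 7.51 in 6Y, 7.20 and 7.26 in 16Y, and 7.38 and 7.50 in 42Y. It fell by 1.07 on the log2 scale (standard error 0.14, adjusted p = 0.032 from limma), and the nearest arrays were 0.48 apart. Cluster 10488806, at 6.34 to 6.92 in control and 5.68 to 6.24 in T2D, had a log2 difference of -0.81 (standard error 0.13, adjusted p = 0.19), which did not pass the threshold. Of the 20 clusters nearest in number to cluster 10578683, 20 belonged to chromosome 8 and not to chromosome 2, so a near-identical copy of the gene may share its signal. Raly and this Eif2s2 cluster were the 2 clusters called lower in T2D, or 0.00562% of those tested. Neither call held without the 6K arrays, without the 42Y arrays or with the label group as a random block, although both clusters stayed lower in each of these settings.

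**Figure D1:**
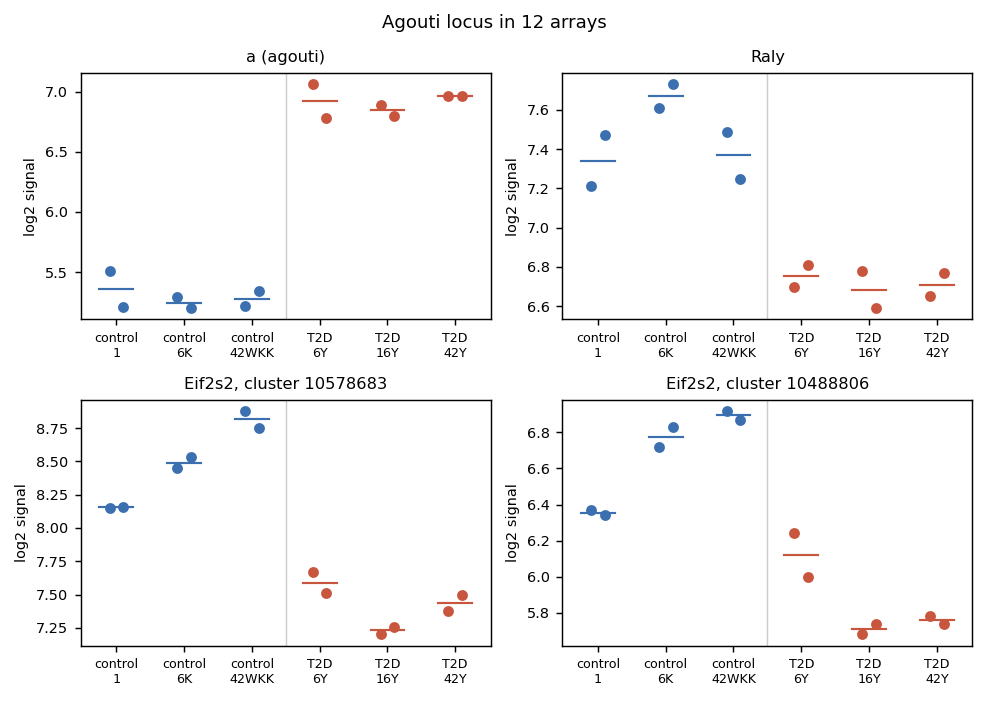
Log2 signal of agouti, Raly and both Eif2s2 clusters in each of the 12 arrays (points) by label group, with the mean of each group of 2 arrays (lines); control groups are blue and T2D groups red. Agouti lay between 6.78 and 7.06 in T2D and between 5.20 and 5.51 in control, and the other 3 clusters were lower in every T2D array than in any control array.

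An exact two-sided permutation test over all 6-and-6 splits of the 12 arrays gave each of these 4 clusters p = 0.0022 (adjusted 0.0022). The adjustment was over the 4 clusters, and no split of single arrays can give a smaller value. The test treated the 12 arrays as exchangeable and did not keep the 2 arrays of a label group together. Arrays of the same label group had a consensus correlation of 0.338 over the clusters, so these permutation p-values may be too small. When the arrays were grouped by the genotype field of the sample records instead, the log2 difference of agouti was 0.47 (exact permutation p = 0.50, adjusted 0.66) and that of Raly -0.10 (exact permutation p = 0.66, adjusted 0.66). The 6K arrays thus carried agouti signals in the control range and the 42Y arrays in the T2D range. The difference for agouti was 1.68 on the log2 scale between 6Y and 6K and 1.68 between 42Y and 42WKK, and the contrast of these differences was 0.006 (adjusted p = 0.99 from limma with 6 group means). The same contrast was 0.25 for Raly (adjusted p = 0.62) and -0.47 for Eif2s2 cluster 10578683 (adjusted p = 0.23).

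No other gene near the locus was called. Of 42 genes that start within 1 Mb of agouti, 3 separated the arms, namely Raly, Eif2s2 and agouti itself, or 7.14%. The other 39 had log2 differences from -0.42 to 0.31 with a median of -0.06. Itch, a ubiquitin ligase on the far side of agouti, averaged 8.87 in control with a difference of 0.185 (unadjusted p = 0.16 from limma). From 1 to 5 Mb, 1 of 130 genes separated the arms (0.769%), the riboflavin transporter Slc52a3, and from 5 to 10 Mb 2 of 114 (1.75%), the syndecan Sdc4 and Wfdc3. From 10 to 20 Mb the count was 0 of 124. Beyond 20 Mb on chromosome 2 it was 5 of 1322 (0.378%), and on the other chromosomes 0.331% of 18124 genes. Of the other 39 genes within 1 Mb, 3 had an unadjusted p under 0.05 from limma. The share at that threshold was 10.8% from 1 to 5 Mb, 7.02% from 5 to 10 Mb and 4.03% from 10 to 20 Mb. It was 6.51% beyond 20 Mb and 5.74% on the other chromosomes.

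**Figure D2:**
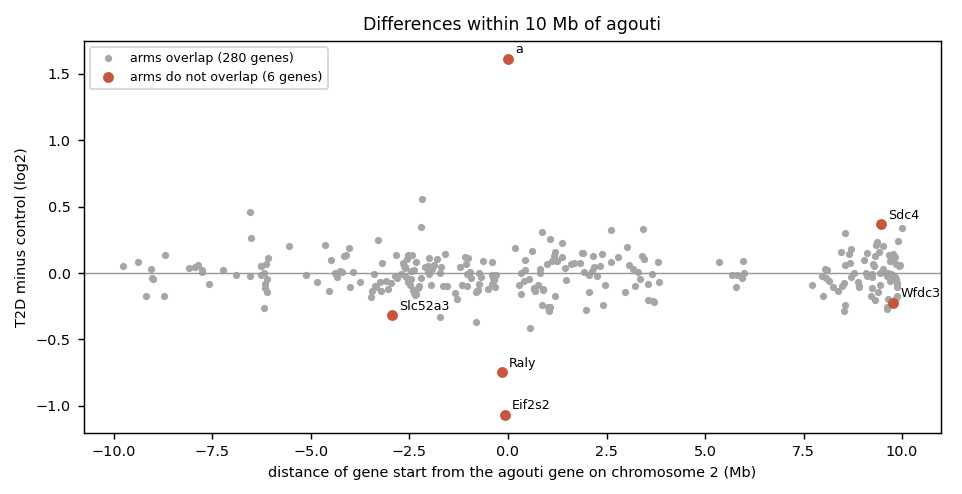
Log2 difference between T2D and control arrays (vertical axis) against the distance of the gene start from agouti on chromosome 2 in Mb (horizontal axis), 1 point per gene, with genes whose arms do not overlap in red. Agouti at 1.61, Raly at -0.745 and Eif2s2 at -1.07 stand apart, and the other genes within 1 Mb lie between -0.42 and 0.31.

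Of all 35556 clusters, 115 separated every T2D array from every control array. These were 59 higher in T2D, or 0.166%, and 56 lower, or 0.157%. Most separated by little. The median gap between the nearest arrays was 0.03 on the log2 scale, 20 clusters had a gap over 0.1, 4 over 0.2 and 1, agouti, over 0.5. The narrowest gaps inside the set were 0.0005, in a cluster without a symbol and in Epn3. The nearest clusters outside the set, Defb15 among them, had a gap of 0. Of the 115, 83 carried 1 symbol, 8 several and 24 none (20.9%, against 34.2% of all clusters). Of the 83, 13 were on chromosome 2 (15.7%), against 8.48% of all clusters with 1 symbol and a chromosome. Without the 4 clusters of the agouti locus it was 9 of 79 (11.4%). A mean log2 signal under 3, near the floor of the arrays, was found in 21 of the 115 (18.3%). When 1 array was left out, 171 to 331 clusters separated, most without T2D 6Y replicate 1 (331). Without the 6K arrays 564 did, and without the 42Y arrays 337. With arrays left out this count cannot fall, and why it rose more for some arrays was not tested. Outside the agouti locus none of the 115 was called.

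After agouti the widest gap among clusters higher in T2D was that of Chac1, a glutathione-degrading enzyme induced by the integrated stress response. It read 6.53 and 6.51 in arrays 1-3 and 1-5, 6.41 and 6.32 in 6K, and 6.35 and 6.27 in 42WKK, against 6.98 and 6.76 in 6Y, 7.01 and 7.07 in 16Y, and 7.27 and 7.19 in 42Y. The gap was 0.23 and the log2 difference 0.65 (standard error 0.09, adjusted p = 0.069 from limma), just short of the threshold. With tests restricted to clusters with 1 symbol, or to a mean log2 signal of at least 6, Chac1 passed. Asns, asparagine synthetase and a target of the same response, read 5.51 to 7.77 in control and 7.17 to 8.80 in T2D, where 16Y-1 was the lowest array. Its log2 difference was 1.38 (standard error 0.37, adjusted p = 0.70). Of 23 genes of the unfolded protein and integrated stress responses, Chac1 and Asns had an unadjusted p under 0.05 and were higher. At this threshold 0 were lower, and the median log2 difference was 0.07. Over all 19938 genes, 649 were higher and 516 lower.

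Snhg17, a small nucleolar RNA host gene, lay at 5.67 to 6.22 in control and up to 6.75 in T2D (log2 difference 0.64, standard error 0.10, adjusted p = 0.19 from limma), in cluster 10489237. Its other clusters did not separate the arms. Cers6, a ceramide synthase that makes ceramides of shorter acyl chains, ran from 6.07 to 6.26 in control and from 6.41 to 7.71 in T2D. The 42Y arrays, at 7.48 and 7.71, were the highest and 6Y-1 the lowest of the T2D arrays (log2 difference 0.945, standard error 0.177, adjusted p = 0.46). Foxa3, a hepatic forkhead factor, lay at 7.44 to 7.91 in control and 8.06 to 8.73 in T2D, with both 42Y arrays above 8.6 (log2 difference 0.71, standard error 0.14, adjusted p = 0.46). Within the pairs, Cers6 differed by 0.55 between 6Y and 6K and by 1.47 between 42Y and 42WKK, and Foxa3 by 0.44 and 1.22. The contrasts of these differences had adjusted p = 0.20 for Cers6 and 0.16 for Foxa3. Another limma fit used a mean for each of the 6 label groups, so that its spread came from the pairs of arrays alone. In it Cers6, Foxa3 and Snhg17 each had an adjusted p = 0.024 and Chac1 one of 0.010. That fit called 74 clusters, 16 of them among the 115 that separated the arms. Tesk2 (0.024), Snord14e (0.012) and Gask1a (0.010), described below, passed in it too.

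Among clusters with 1 symbol, the remaining ones with the widest gaps on the higher side had gaps of 0.08 to 0.14 and log2 differences of 0.286 to 0.585, all with an adjusted p of 0.54 or more. They were Tlr13, a receptor for bacterial ribosomal RNA (0.50), the drug efflux pump Abcb1a (0.38), the mTORC2 subunit Rictor (0.39), the kinase Tesk2 (0.585), the magnesium transporter Nipa2 (0.42), the proton pump subunit Atp6v0b (0.29) and the olfactory receptor Olfr1424 (0.45). Olfr1424 lay near the floor, at 1.49 to 1.92 in control and from 2.03 in T2D. Another 5 clusters without a symbol had gaps of 0.109 to 0.149 and log2 differences of 0.205 to 1.22, with adjusted p from 0.46 to 0.70.

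On the lower side, Gask1a, a Golgi protein, had the largest difference after Eif2s2. It read 6.71 and 6.73 in arrays 1-3 and 1-5, 6.73 and 6.77 in 6K, and 7.06 and 7.38 in 42WKK, against 6.51 and 6.61 in 6Y, 6.03 and 5.58 in 16Y, and 5.35 and 5.36 in 42Y. The 6Y arrays lay just under the controls and the 42Y arrays far below (log2 difference -0.99, standard error 0.23, adjusted p = 0.70 from limma). The difference was -0.19 between 6Y and 6K and -1.87 between 42Y and 42WKK, and the contrast of these, -1.68, passed the test (adjusted p = 0.041 from limma with 6 group means). It was the 1 separating cluster among 51 called in that contrast, which were 0.143% of the clusters tested. Snord14e, a small nucleolar RNA, had a log2 difference of -0.645, with 16Y at 7.86 and 7.66 and the other T2D arrays at 8.44 to 8.66, against 8.80 to 9.14 in control (adjusted p = 0.70).

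The other clusters with 1 symbol and the widest gaps on this side had smaller differences, all with an adjusted p of 0.70. Another 4 without a symbol had gaps of 0.081 to 0.13 and log2 differences from -0.661 to -0.449, with adjusted p from 0.46 to 0.70. The log2 differences were -0.36 for the kinase Lrrk2, which lay near the floor at 1.94 to 2.79, -0.325 for the scaffold protein Shank2, -0.319 for Slc52a3, -0.205 for the acylphosphatase Acyp1, -0.30 for the zinc finger protein Zfp706, -0.25 for Fads2b, also near the floor, and -0.335 for Ndufv3, a subunit of respiratory complex I. The Zfp706 cluster is numbered among clusters of chromosome 1 while the gene lies on chromosome 15. Another Zfp706 cluster, 10428211, is numbered among clusters of chromosome 15. It separated the arms with a gap of 0.003 and a log2 difference of -0.153 (adjusted p = 0.82 from limma).

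**Figure D3:**
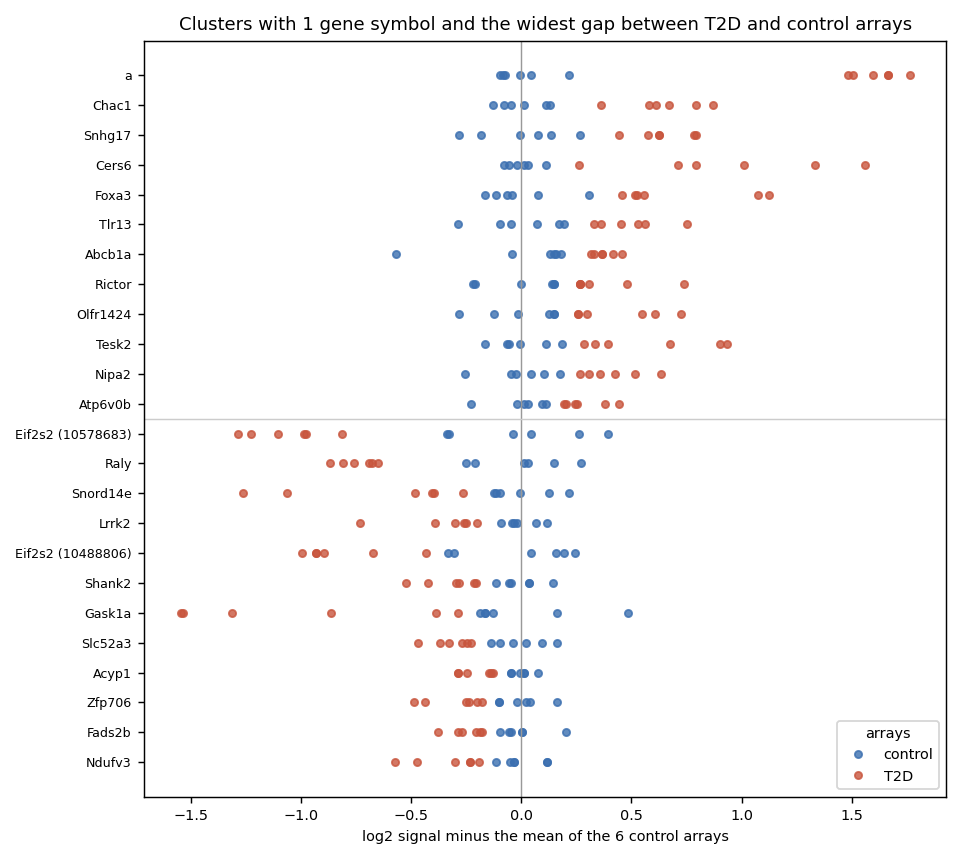
Log2 signal of each array minus the mean of the 6 control arrays (horizontal axis) for the 12 clusters with 1 gene symbol and the widest gap in each direction, with control arrays blue and T2D arrays red. Agouti is separated by 1.27, Eif2s2 cluster 10578683 by 0.48 and Raly by 0.40, and all other gaps shown are at most 0.23.

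No other gene of melanocortin signalling was called. Of 12 genes measured, agouti rose, 0 others passed the test, and the median log2 difference was -0.02. Mc1r, the pigment cell receptor, had low signals of 4.43 to 5.00 in control and 4.18 to 4.67 in T2D (log2 difference -0.25, unadjusted p = 0.046, adjusted p = 0.81). Of 14 subunits, exchange factors and kinases of the eIF2 pathway, Eif2s2 fell and 0 others had an unadjusted p under 0.05. The gene with the next largest statistic, Eif5, lay at 10.22 to 10.67 in control and 10.10 to 10.36 in T2D (log2 difference -0.19, adjusted p = 0.82).

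Among the gene lists, acute phase and complement genes held the highest share of members at an unadjusted p under 0.05. The lists were chosen with earlier results of these data known, so their shares are descriptive only. Of 27 measured, 13 passed this looser threshold and were higher in T2D (48.1%) and 0 were lower. Over all clusters, 3.54% were higher and 2.57% lower at this threshold. The median log2 difference of the list was 0.23, against -0.01 over all 19938 genes. None was called at an adjusted p under 0.05, and none separated the arms. Lcn2, lipocalin 2, a siderophore-binding protein made by liver in inflammation, read 9.27 to 10.17 in control and 11.85 to 12.78 in 5 T2D arrays, but 9.54 in 6Y-1 (log2 difference 2.19, standard error 0.42, adjusted p = 0.46). Without 6Y-1, the T2D array that stood apart, the log2 difference was 2.63. Lcn2 was called without 6Y-1, but this array was picked out from these same values, so that call adds no support. In 26 of 28 alternatives Lcn2 was not called. Orm2, an orosomucoid, showed the same order, at 8.50 to 9.42 in control and 10.03 to 11.93 in 5 T2D arrays, with 6Y-1 at 8.93 (log2 difference 1.73, adjusted p = 0.70). Saa2, a serum amyloid A, was 2.29 higher in the mean, yet 6K-1 and 6K-2, at 10.32 and 11.70, lay well above the other controls, at 7.82 to 8.81. The list had 12 higher members without the 6K arrays, 7 without the 42Y arrays, 8 without arrays 1-3 and 1-5, 8 without 16Y and 9 with the label group as a random block. Over all 19938 genes, the counts higher were 616, 525, 685, 578 and 326 in the same order.

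Macrophage and neutrophil markers were also higher in the mean. Over all 19938 genes, 9591 had a higher mean in T2D and 649 were higher at an unadjusted p under 0.05. Of 14 Kupffer cell and macrophage genes 13 had a higher mean in T2D, 6 at an unadjusted p under 0.05 (42.9%), with a median log2 difference of 0.34. Their summed signal on the linear scale was 1360 to 2330 in T2D and 940 to 1510 in control, so the ranges overlapped. Cd163, the haemoglobin scavenger receptor, read 5.81 to 6.51 in control and 6.46 to 7.09 in T2D, C1qc, a complement C1q chain, 6.05 to 6.66 and 6.53 to 7.11, and Cd5l, a secreted macrophage protein, 6.30 to 7.29 and 7.18 to 7.97. The log2 differences were 0.51, 0.45 and 0.58, each with an adjusted p of 0.70 or 0.71. The count was 8 without the 6K arrays, 8 without the 42Y arrays, 3 without arrays 1-3 and 1-5, 3 without 6Y-2 and 4 with the label group as a random block. All 10 neutrophil genes had higher means, 4 at an unadjusted p under 0.05, but signals were low. Retnlg, a resistin-like granule protein, separated the arms at 3.51 to 3.91 against 3.94 to 5.62, with the 42Y arrays the highest (log2 difference 0.87, adjusted p = 0.71). Csf3r, the receptor for granulocyte colony stimulating factor, had 0.42 and S100a9 0.56. The count of 4 became 1 without the 42Y arrays, 1 without the 6K arrays and 2 with the label group as a random block. With that block the counts over all 19938 genes were 326 higher and 263 lower. The counts higher over all genes were 616 without the 6K arrays and 525 without the 42Y arrays. They were 685 without arrays 1-3 and 1-5 and 673 without 6Y-2. The part of these cells in the acute phase values was not tested.

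Hepatocyte markers had a median log2 difference of -0.05, with a summed signal of 78900 to 82000 in T2D and 79100 to 87300 in control. Of 10 measured, Hnf4a, a master factor of hepatocytes, had an unadjusted p under 0.05 (10.74 to 10.93 in control, 10.90 to 11.39 in T2D, difference 0.30, adjusted p = 0.71). T cell, B cell, stellate, cholangiocyte, adipocyte, erythroid and pancreatic acinar lists had medians between -0.07 and 0.08, and endothelial genes 0.13.

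**Figure D4:**
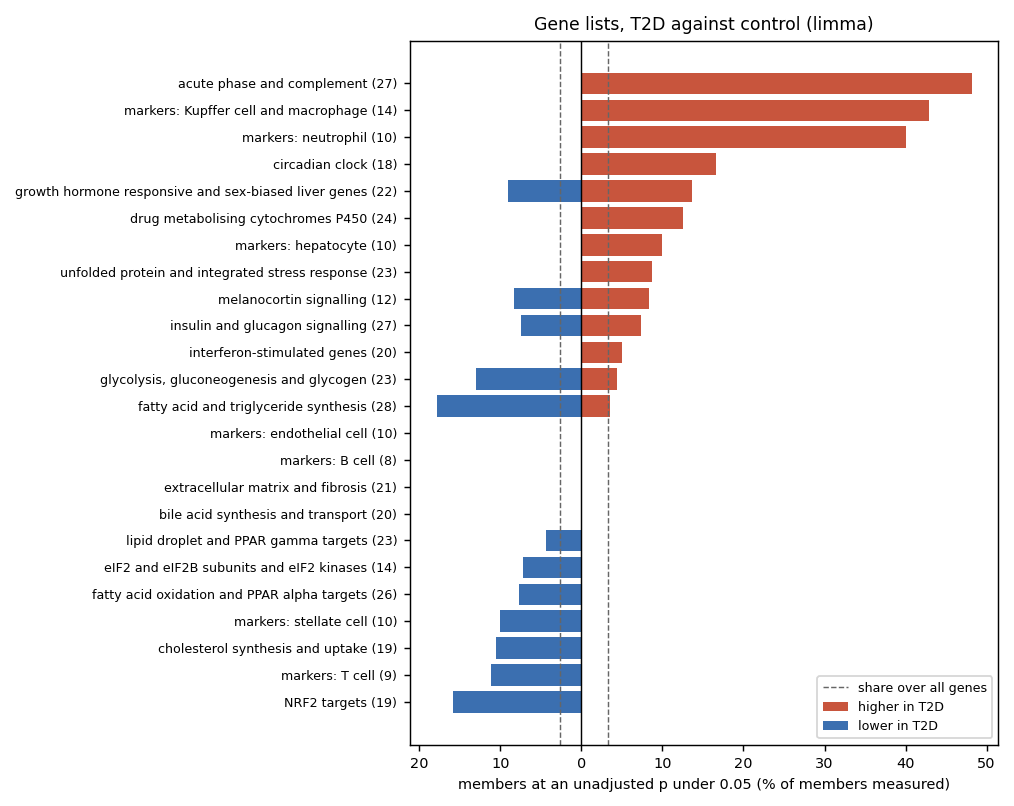
Share of the measured members of each gene list at an unadjusted p under 0.05 (limma), to the right for higher and to the left for lower in T2D, with the number measured in brackets and dashed lines at the shares over all genes; lists of under 8 genes are left out. Acute phase genes (48.1% higher), macrophage markers (42.9%) and neutrophil markers (4 of 10) reach furthest, and no other list passes 20% in either direction. The lists were chosen with earlier results of these data known.

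No gene of the lipid lists was called. Over all 19938 genes, 10347 had a lower mean in T2D, 516 were lower and 649 higher at an unadjusted p under 0.05. Among fatty acid and triglyceride synthesis genes, 28 were measured and 24 had a lower mean in T2D, 5 at an unadjusted p under 0.05, and 1 was higher at that threshold. The median of these genes was 0.15 between 6Y and 6K and -0.45 between 42Y and 42WKK, so its sign differed between the pairs. Fasn, fatty acid synthase, read 9.18 to 10.67 in control, 9.59 and 9.71 in 6Y, 8.52 and 8.42 in 16Y, and 8.83 and 9.15 in 42Y (log2 difference -0.81, standard error 0.27, adjusted p = 0.71). Acacb, an acetyl-CoA carboxylase, read 8.02 to 8.41 in control, 8.26 and 8.24 in 6Y and 6.94 to 7.41 in the other T2D arrays (-0.61, adjusted p = 0.72). For both genes the 6Y arrays lay among the controls and the 16Y and 42Y arrays below them. Lpin1, a phosphatidate phosphatase, was the gene higher at that threshold (0.96, adjusted p = 0.74), with 6K-1 at 6.83 far below the other controls, at 8.56 to 9.42. The list had 1 lower gene without the 42Y arrays, 0 without the 16Y arrays, 7 without the 6K arrays and 3 with the label group as a random block. Over all genes, 326, 580, 590 and 263 were lower in the same order. In the fit with 6 group means 12 genes of the list were lower and 2 higher at that threshold. Over all genes that fit gave 1205 lower and 1317 higher.

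Of 19 genes of cholesterol synthesis and uptake, 18 had a lower mean in T2D, with a median log2 difference of -0.44, but 2 were lower at an unadjusted p under 0.05. The median was 0.43 between 6Y and 6K and -1.03 between 42Y and 42WKK, so the sign over all arrays did not hold in both pairs. Without the 16Y arrays the median was -0.06. The count was 0 without the 16Y, the 6K or the 42Y arrays and with the label group as a random block, and 10 without 6Y-2. It was 6 without 6Y-1 and 13 in the fit with 6 group means. Over all 19938 genes, 516 were lower with all arrays, 580 without 16Y, 590 without 6K and 326 without 42Y. The count over all genes was 263 with the random block, 583 without 6Y-2, 666 without 6Y-1 and 1205 with 6 group means. Fdps, farnesyl diphosphate synthase, read 8.77 and 9.16 in 6Y, 7.17 and 6.71 in 16Y, and 7.30 and 8.35 in 42Y, against 8.38 to 9.21 in control (difference -0.77, adjusted p = 0.82). Dhcr7, the last enzyme of the pathway, showed the same order, at 9.51 and 9.77 in 6Y, 8.65 and 8.65 in 16Y, and 8.54 and 9.19 in 42Y. For 20 genes of bile acid synthesis and transport and 21 of extracellular matrix and fibrosis the count at an unadjusted p under 0.05 was 0. It was 2 lower of 26 for fatty acid oxidation and 1 lower of 23 for lipid droplet genes. Of the former Pdk4, a kinase that restrains pyruvate oxidation, had a difference of -0.72 (adjusted p = 0.81).

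Of 27 genes of insulin and glucagon signalling, 21 had a higher mean, with 2 higher and 2 lower at an unadjusted p under 0.05 and a median of 0.07. Over all 19938 genes, 649 were higher and 516 lower at this threshold. Irs1, an insulin receptor substrate, read 7.26 to 7.94 in control and 6.88 to 7.61 in T2D (difference -0.44, adjusted p = 0.74), and Foxo3, a forkhead factor that insulin restrains, 7.35 to 8.09 in control and at most 8.50 in T2D (0.38, adjusted p = 0.71). Among 23 genes of glucose and glycogen metabolism 3 were lower and 1 higher, with the liver glycogen synthase Gys2 at -0.37 (adjusted p = 0.77) and Tkfc, which phosphorylates glyceraldehyde from fructose, at -0.51 (adjusted p = 0.74). Among 24 drug metabolising P450 genes 3 were higher and 0 lower, led by Cyp3a13, at 9.24 to 9.69 in control and 9.59 to 10.16 in T2D (0.47, adjusted p = 0.70). Cyp2b9 was the next, at 0.83 (adjusted p = 0.72). Among 19 NRF2 targets 16 had lower means, 3 at an unadjusted p under 0.05, where the share over all clusters was 2.57%. The median log2 difference of the list was -0.04, with -0.06 between 6Y and 6K and 0.007 between 42Y and 42WKK. Without the 16Y arrays 12 had lower means. The count of 3 at that threshold became 1 without the 42Y arrays and 1 with the label group as a random block, and stayed 3 without the 6K arrays. Of these the glutathione transferase Gsta3 separated the arms with a gap of 0.01 (difference -0.29, adjusted p = 0.70), and Aox1, an aldehyde oxidase, had -0.34 (adjusted p = 0.77). Of 22 growth hormone responsive genes 3 were higher and 2 lower, among the latter the urinary protein gene Mup21 (-0.55, adjusted p = 0.76). Of 20 interferon-stimulated genes 1 was higher, Mx2 (0.49, adjusted p = 0.72).

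Of 18 clock genes 3 were higher at an unadjusted p under 0.05, Cry2, Bhlhe41 and Ciart, and 0 lower, with a median of 0.32. Over all 19938 genes, 649 were higher and 516 lower. Without the 6K arrays 0 clock genes were higher and 1 lower, with a median of 0.18. Without the 42Y arrays 0 were higher and 1 lower, with a median of 0.12. Over all genes, 616 were higher and 590 lower without 6K, and 525 higher and 326 lower without 42Y. In the fit with 6 group means 11 clock genes were higher and 3 lower at that threshold, against 1317 and 1205 over all genes. In Bhlhe41, a transcriptional repressor of the clock, the 42Y arrays read 4.90 and 5.34 and the other T2D arrays 3.46 to 3.96, against 3.31 to 3.79 in control. Ciart, another repressor, ranged from 4.90 to 8.37 in T2D and from 4.87 to 5.99 in control (difference 1.17, adjusted p = 0.78). Cry2 differed by 0.34 (adjusted p = 0.74). No source used here gives the time of day of collection, and its part was not tested.

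**Figure D5:**
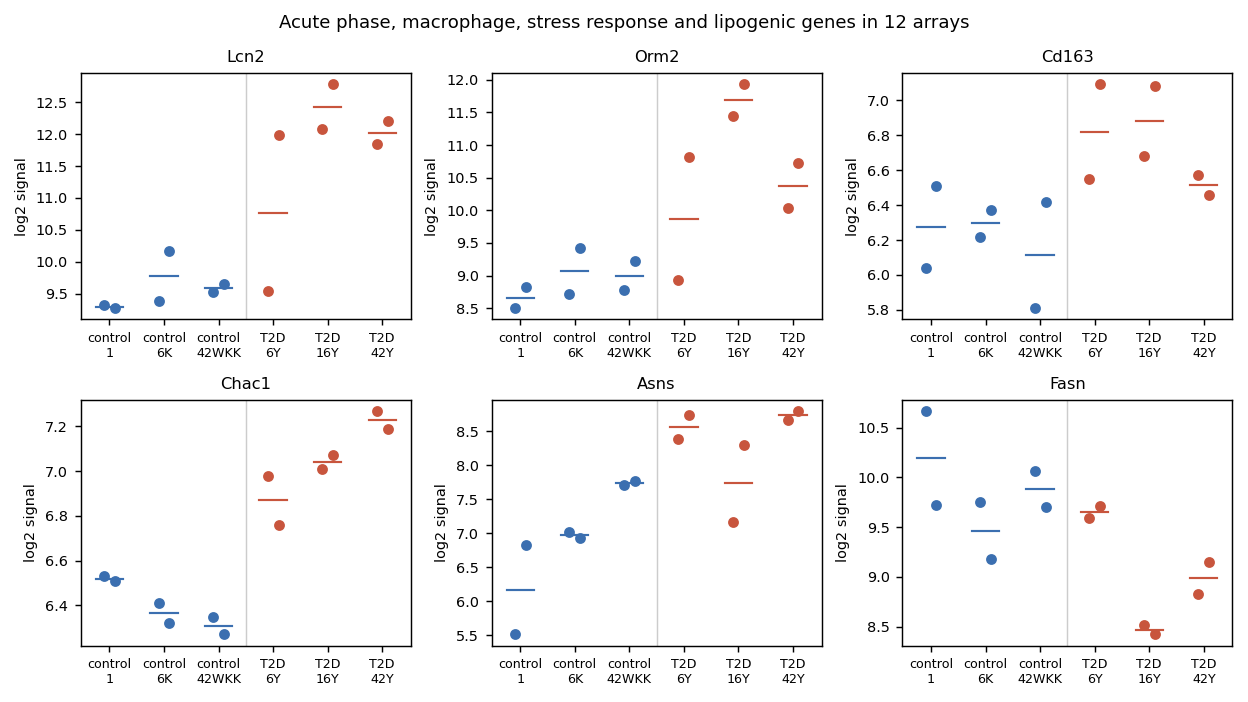
Log2 signal of 6 genes in each of the 12 arrays (points) by label group, with the mean of each group of 2 arrays (lines); control groups are blue and T2D groups red. Only Chac1, at 6.27 to 6.53 in control and 6.76 to 7.27 in T2D, keeps the arms apart among these 6, while Lcn2 and Orm2 have 1 low T2D array, 6Y-1, and Fasn is low in 16Y and 42Y but not in 6Y.

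For the genes that the study followed in T2D, no difference between the arms passed the test. Nt5c2, a cytosolic nucleotidase, read 6.96 to 7.36 in control and 6.97 to 7.36 in T2D (difference 0.01, exact two-sided permutation p = 0.94, adjusted 0.94 over the 4 genes). Fut8, which adds core fucose to glycoproteins, read 5.55 to 6.39 and 5.51 to 6.53 (-0.04, exact permutation p = 0.82, adjusted 0.94). Dnmt1, the maintenance DNA methyltransferase, read 6.26 to 6.58 and 6.04 to 6.51 (-0.17, exact permutation p = 0.13, adjusted 0.52), and Insr, the insulin receptor, 9.22 to 9.79 and 9.44 to 9.68 (0.02, exact permutation p = 0.80, adjusted 0.94). Between 42Y and 42WKK the differences were -0.32 for Nt5c2 (adjusted p = 0.21) and -0.36 for Fut8 (adjusted p = 0.27), from limma with 6 group means. Between 6Y and 6K the differences were 0.12 and 0.10. The contrasts of these did not pass the test (adjusted p = 0.31 for Nt5c2 and 0.40 for Fut8 from limma). Over all clusters, 659 were called between 42Y and 42WKK and 1, agouti, between 6Y and 6K, in the same fit.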

How the data were processed

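Expression was measured in 12 arrays. What the authors deposited are log2 values, 1 per transcript cluster and array, obtained with the sketch form of robust multichip analysis in Affymetrix Expression Console. Clusters belong to the mouse gene array although the methods name an exon array, and no source used here states a genome build for them. Symbols were updated through GRCm38.p6 gene identifiers (21698 clusters matched), which also gave neighbours, and promoters came from RefSeq. In lists and windows a gene was represented by its cluster with the highest mean.

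T2D and control arrays were compared with limma 3.58.1 (R 4.3.3), using lmFit with 1 mean per arm and eBayes with no trend. A cluster was called at a Benjamini-Hochberg adjusted p under 0.05 over 35556 clusters, and counted as separating when all 6 T2D arrays lay beyond all 6 control arrays. Contrasts between label groups came from a fit with 6 group means. Named genes, taken only from clusters with 1 symbol, were the agouti locus, the genes of the paper, called clusters, the 12 widest gaps per direction and up to 3 members per list. Members and lists were chosen with earlier results of these data known. The procedure was checked with simulated data. There is no sequencing depth in array data, so precision depends on the number of arrays, and as no source says more about the mice, p-values measure the spread between these arrays. Alternatives covered normalization, centring, a filter at a mean log2 of 6, annotation, a variance trend, how the spread is estimated, replicate numbers as a block, arrays and label groups left out, the genotype field and analysis of variance. Replicate numbers did not pair the arrays, since deviations of arrays with the same number correlated by -0.0363 to 0.0549.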

Additional observations from a re-analysis of the deposited data

Results flagged for a closer look

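In 7 of 124 arms of 6 arrays examined over the named clusters, 1 array stood apart from the other 5, where chance gives about 1 in 20. The figure given is the gap to the nearest array as a share of the whole range. For Lcn2 in T2D it was 0.713, with 6Y-1 at 9.54 and the others at 11.85 to 12.78. For Asns in T2D it was 0.682, with 16Y-1 at 7.17 and the others at 8.29 to 8.8. For Lrrk2 in T2D it was 0.64 (6Y-1 at 1.94, the others at 2.28 to 2.47). In control it was 0.665 for Lpin1 (6K-1 at 6.83, the others at 8.56 to 9.42), 0.711 for Abcb1a (1-5 at 4.7, the others at 5.23 to 5.45) and 0.639 for Tkfc (1-5 at 9.98, the others at 10.42 to 10.67). It was 0.648 for Fads2b in control (42WKKB at 1.85, the others at 1.55 to 1.65).

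Gask1a differed between the label groups, with a log2 difference of -0.19 between 6Y and 6K and -1.87 between 42Y and 42WKK, and the contrast of these had an adjusted p of 0.041 from limma.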

How the results depend on the processing

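The agouti call was lost only with arrays grouped by the genotype field of the records, among 28 alternatives, and Raly and Eif2s2 cluster 10578683 lost theirs in 20 and 18 of 28 but kept their sign in all. All 4 agouti locus clusters passed the exact test, which split single arrays, in every alternative run on it except that grouping, where 0 did. The 3 called clusters became 1 with centred arrays, with the label group as a random block, with the title number as a block, without 6K, without 42Y, without 16Y and with the adjusted analysis of variance, which without adjustment gave 2230. They became 6 with a mean log2 of at least 6 or with 1 symbol, 74 with 6 group means, 14 by the genotype field and 1 to 4 without single arrays. With the replicate block 1 remained, and the 51 clusters called in the contrast between 42 and 6 became 12. That count was 622 at a mean log2 of at least 6, 208 with 1 symbol, 202 with a variance trend and 3 to 110 without single arrays (3 without control 6K replicate 2, 110 without T2D 42Y replicate 2). The 115 separating clusters became 51 at a mean log2 of at least 6, 564 without 6K, 337 without 42Y, 503 without arrays 1-3 and 1-5, 451 without 16Y, 235 by the genotype field and 171 to 331 without single arrays. The cause of these shifts was not tested.

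Differences near 0 changed sign. Nt5c2 turned to -0.00401 with quantile normalization, -0.098 with the title number as a block, -0.0466 without 6K, -0.0305 without arrays 1-3 and 1-5 and -0.0611 without 16Y, and ran from -0.0386 to 0.0529 without single arrays. Fut8 turned to 0.116 without 6K, 0.128 without 42Y, 0.0164 without 16Y and 0.429 by the genotype field, and ran from -0.173 to 0.0477 without single arrays. Insr turned to -0.131 with the title number as a block, -0.0135 with the replicate block, -0.0917 without arrays 1-3 and 1-5 and -0.0151 without 16Y, and ran from -0.0354 to 0.0779 without single arrays. By the genotype field the difference of Dnmt1 turned to 0.0887, Cers6 to -0.0359, Tesk2 to -0.0481, Acacb to 0.0169, Lpin1 to -0.14, Foxo3 to -0.204, Cry2 to -0.16, Bhlhe41 to -0.518, Ciart to -0.448, Hnf4a to -0.0783, Retnlg to -0.294, Csf3r to -0.143, S100a9 to -0.28 and Sdc4 to -0.0149. The other 45 of 62 named clusters kept their sign in every alternative. The list counts without label groups, without single arrays and with 6 group means were added after seeing the data.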
